A study of Mus musculus with 150 samples.

Results

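Whole lungs of Cyp2f2-null mice that breathed clean air for 78 weeks were set against those of mice of the same lines after 52 weeks. The members are the 19 arrays of the series whose titles give dose 0, line KO or TG, and 78 or 52 weeks, out of 150 arrays in all. The 78-week groups are KO (4 mice) and TG (5 mice), and the 52-week groups are KO (5 mice) and TG (5 mice). KO mice are male C57Bl/6 mice labelled CYP2F2(-/-), which lack the mouse Cyp2f2 gene. TG mice carry the same deletion and are labelled transgenic for 2F1, SA13 and 2B6; the labels name no promoter for the transgenes. All 19 mice are labelled adult, were kept as the 0 ppm air controls of a 120 ppm styrene inhalation study, and were killed on the morning after the last exposure. The weeks are the labelled time of exposure, and the age at the start is not given beyond "adult". The treatment text of the labels speaks of 1 or 4 weeks, which differs from the weeks on the samples.

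Each mouse gave 1 Affymetrix HT MG-430 PM array, and every value below is a log2 RMA level of the probe set with the highest mean for its gene. All 19 arrays lay on plate 1, with the 78-week arrays in well rows G and H and the 52-week arrays in rows D and E, so plate position and week cannot be told apart. The array medians were 4.18 to 4.26 at 78 weeks and 4.11 to 4.17 at 52 weeks, with no overlap. The KO 78-week replicate 1 array stood apart from its group, with a median correlation of 0.977 against 0.984 to 0.996 for the other 18 arrays. No 2 of the 19 arrays held identical values. Cyp2f2 itself does not check the genotype here, since its probe set may lie outside the deleted part: it read 11.99 to 12.34 (median 12.09) at 78 weeks and 11.69 to 12.38 (median 12.13) at 52 weeks, a difference of 0.04 (limma, adjusted p = 0.69).

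The gene groups that differed most belong to well-known programmes. Heat shock factors switch on cytosolic chaperones when proteins unfold, and the unfolded protein response does the same for the endoplasmic reticulum. Glucocorticoids, which follow a daily rhythm and rise with stress or fasting, induce genes such as Tsc22d3, Fkbp5 and Zbtb16 through the glucocorticoid receptor, while fasting lipids induce Angptl4 and Pdk4 through PPARs. In ageing mouse lungs, B cells and T cells can gather around airways and vessels, where CXCR5 and lymphotoxin help to organise them into follicles.

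Averaged over the lines, 5692 of 15695 genes tested (36.3%) differed between 78 and 52 weeks at an adjusted p under 0.05 (limma, Benjamini-Hochberg over all genes tested). Of these, 2360 genes (15%) were higher at 78 weeks and 3332 genes (21.2%) were lower, with a median over all genes of −0.08 on the log2 scale. When each array was centred on its median, the split was 2115 higher and 4749 lower, and the higher share of the calls was 30.8% rather than 41.5%. Differences of at least 2-fold were fewer and ran mostly upward: 298 called genes (1.9%) were higher and 46 (0.293%) were lower at 78 weeks. With the mean of all probe sets of a gene in place of 1 probe set, 216 rather than 344 genes differed at least 2-fold. In 221 genes (1.41%) all 9 arrays at 78 weeks lay above all 10 at 52 weeks, and in 238 genes (1.52%) they lay below.

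**Figure D1:**
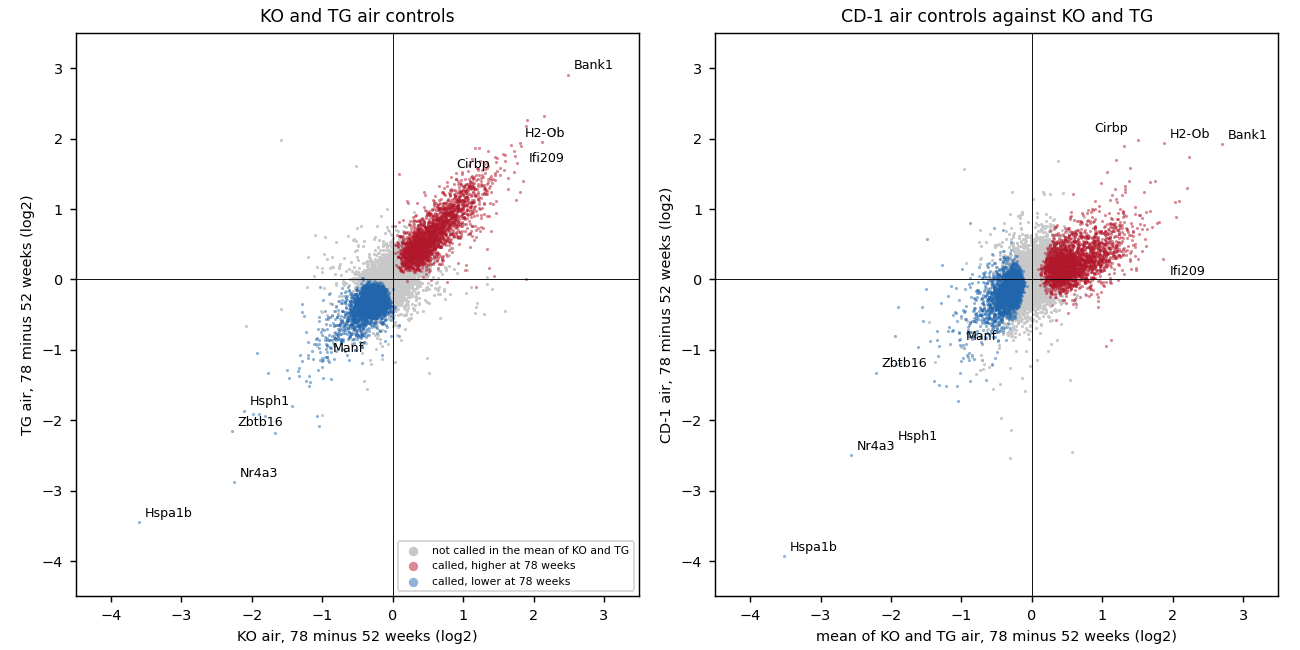
Difference between 78 and 52 weeks for every gene tested (1 point per gene, log2, 78 minus 52 weeks), coloured by the call in the mean of KO and TG air controls. Left, TG against KO air controls; right, CD-1 air controls against the mean of KO and TG. Hspa1b and Nr4a3 lie at the lower left in both panels, at −3.52 and −2.56 in the mean of KO and TG, and Bank1 at the upper right, at 2.70.

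Heat shock chaperones were lower at 78 weeks. Of 13 members tested, 11 fell and 1 rose, with a median difference of −0.65, while 21.2% of all genes tested were called lower and 15% higher. Without KO 78-week replicate 1, 8 members fell and 1 rose. In 5 members all 78-week arrays lay below all 52-week arrays, against 1.52% of all genes tested. Hspa1b, the stress-inducible Hsp70, showed the widest gap of any called gene in the averaged comparison. Its levels were 6.63, 6.12, 5.69 and 6.22 in KO and 5.96, 6.75, 6.27, 6.23 and 6.22 in TG at 78 weeks. At 52 weeks they were 10.91, 10.06, 10.16, 8.28 and 9.40 in KO and 10.87, 11.46, 9.14, 9.53 and 7.66 in TG. The 78-week arrays formed a narrow low band, while the 52-week arrays were all higher and spread over a wide range. The averaged difference was −3.52 ± 0.42 (SE), an 11.5-fold lower level (adjusted p = 9.71e-11). All 3 Hspa1b probe sets were lower, and this one may also read the near-identical Hspa1a.

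Hsph1, the Hsp110 that exchanges nucleotide on Hsp70, averaged 7.77 ± 0.17 (SD, n = 4) in KO and 7.71 ± 0.23 (SD, n = 5) in TG at 78 weeks, against 9.88 ± 0.40 in KO and 9.58 ± 0.83 in TG at 52 weeks (SD, n = 5 each). It was 3.97-fold lower (adjusted p = 1.67e-09), with no overlap between the weeks. Hspb1, a small heat shock protein that holds unfolded clients, was 2.63-fold lower, and Stip1, which passes clients from Hsp70 to Hsp90, was 2.34-fold lower. Dnajb1, an Hsp40 co-chaperone, fell by 1.06 on the log2 scale, and Hspe1, the mitochondrial Hsp10 (−0.93), and Hspa8, the constitutive Hsc70 (−0.65), fell less. Dnaja1, another Hsp40, fell by 0.65 (adjusted p = 0.0252), a call that was lost without KO 78-week replicate 1 (0.0686), KO 52-week replicates 1 (0.0547) or 3 (0.0583) or TG 52-week replicates 1 (0.0556) or 2 (0.0823). Hsp90aa1, the inducible Hsp90, did not pass (0.23, adjusted p = 0.58). Hspa4, an Hsp110 relative, was the single member that rose (0.42, adjusted p = 0.0115), and the mean of its probe sets gave an adjusted p of 0.559.

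Upstream sequences are shown for 4 chaperone genes that fell and that hold the short pattern GAANNTTC on either strand. The pattern stands here for the heat shock element, to which heat shock factors bind. Binding at these matches was not tested. Sequences are from RefSeq on build GRCm38.p6 and run 5′ to 3′ on the gene's strand, with the element in capitals.
Hspa1b, chr17:34959275-34959402, minus strand: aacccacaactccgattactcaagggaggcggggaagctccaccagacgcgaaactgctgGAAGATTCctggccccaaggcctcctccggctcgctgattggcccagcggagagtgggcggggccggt
Hspb1, chr5:135887742-135887889, plus strand: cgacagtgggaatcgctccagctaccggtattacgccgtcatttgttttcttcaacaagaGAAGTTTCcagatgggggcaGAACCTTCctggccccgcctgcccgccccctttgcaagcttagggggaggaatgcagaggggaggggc
Dnaja1, chr4:40722284-40722411, plus strand: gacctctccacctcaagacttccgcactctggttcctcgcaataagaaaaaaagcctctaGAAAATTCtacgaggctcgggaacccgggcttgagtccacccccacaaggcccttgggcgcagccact
Hspe1, chr1:55088004-55088131, plus strand: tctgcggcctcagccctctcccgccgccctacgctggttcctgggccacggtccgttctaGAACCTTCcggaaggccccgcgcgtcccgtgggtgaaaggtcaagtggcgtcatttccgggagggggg
Within 250 bases before to 50 after the start site, 7 of the 9 lower members with a RefSeq promoter held the element: Hspa1b, Hspb1, Hspe1, Hsph1, Dnaja1, Bag3 and Chordc1. In Hsph1 and Bag3 the match lay after the start site. Of 32851 RefSeq promoters 7.86% hold the pattern. Bag3, an Hsp70 nucleotide exchange factor (−0.41), and Chordc1, an Hsp90 co-chaperone (−0.49), are named here for the element.

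Cirbp, the cold-inducible RNA-binding protein, moved the other way. It read 8.79, 8.90, 9.09 and 8.77 in KO and 8.76, 9.13, 9.23, 9.14 and 9.15 in TG at 78 weeks. At 52 weeks it read 7.91, 7.79, 5.98, 7.70 and 7.48 in KO and 7.85, 7.08, 7.99, 7.27 and 7.79 in TG. Every 78-week array was above every 52-week array, and the level was 2.83-fold higher (adjusted p = 2.76e-09). Rbm3, a related cold-inducible protein, differed by −0.01.

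Genes of the endoplasmic reticulum stress response fell together: 17 of 20 members tested were lower, none was higher (1 was without KO 78-week replicate 1 or with the mean of all probe sets), and the median difference was −0.40. Ddit3, the transcription factor CHOP, read 7.39, 7.64, 7.58 and 7.61 in KO and 7.74, 7.86, 7.58, 7.53 and 7.46 in TG at 78 weeks. Its 52-week levels were 8.45, 8.63, 8.81, 8.32 and 8.27 in KO and 8.62, 8.90, 8.46, 8.76 and 8.38 in TG. The groups did not overlap, and Ddit3 fell by 0.97 on the log2 scale (adjusted p = 5.54e-12). Manf, a secreted protein released on endoplasmic reticulum stress, averaged 9.87 ± 0.22 in KO (SD, n = 4) and 9.81 ± 0.17 in TG (SD, n = 5) at 78 weeks, against 10.80 ± 0.48 and 10.91 ± 0.25 at 52 weeks (SD, n = 5 each). It was 2.02-fold lower (adjusted p = 9.67e-13), also without overlap. Creld2, an endoplasmic reticulum disulfide isomerase (−1.02), and Sdf2l1, which assists folding there (−0.92), fell as well.

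Other members fell less, among them Pdia6, a disulfide isomerase (−0.62), Herpud1, a part of the degradation machinery (−0.57), Calr, the lectin chaperone calreticulin (−0.37), and the transcription factors Atf4 (−0.31) and Xbp1 (−0.24). Hspa5, the chaperone BiP, fell by 0.34 (adjusted p = 0.0234), and without KO 52-week replicate 3 its adjusted p was 0.086. Hsp90b1 (0.39), Canx (0.18) and Dnajc3 (−0.10), all chaperones or co-chaperones of the same compartment, did not pass.

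The endoplasmic reticulum stress element, CCAAT and CCACG with 9 bases between them on either strand, is bound by ATF6 with NF-Y, and upstream sequences of 4 members that fell and hold it follow in the same format, with the element or its reverse complement in capitals.
Hspa5, chr2:34771965-34772089, plus strand: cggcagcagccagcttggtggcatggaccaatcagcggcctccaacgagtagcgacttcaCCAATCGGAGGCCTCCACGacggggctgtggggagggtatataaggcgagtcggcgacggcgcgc
Creld2, chr15:88819460-88819598, plus strand: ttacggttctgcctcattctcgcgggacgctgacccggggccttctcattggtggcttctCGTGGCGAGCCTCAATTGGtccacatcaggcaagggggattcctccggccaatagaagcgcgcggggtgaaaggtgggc
Pdia6, chr12:17266431-17266569, plus strand: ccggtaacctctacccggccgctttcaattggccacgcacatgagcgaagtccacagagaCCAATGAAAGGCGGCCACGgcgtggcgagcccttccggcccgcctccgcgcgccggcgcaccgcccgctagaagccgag
Calr, chr8:84847015-84847153, minus strand: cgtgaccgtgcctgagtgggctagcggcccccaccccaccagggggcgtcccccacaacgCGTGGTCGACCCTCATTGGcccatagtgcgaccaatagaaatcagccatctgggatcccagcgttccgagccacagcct
These were the 4 of 15 lower members with a RefSeq promoter that held the element in the same window, and all 3 members that did not pass, Hsp90b1, Canx and Dnajc3, held it too. Only 39 of all 32851 promoters (0.119%) hold it.

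Glucocorticoid-responsive genes and metallothioneins had the lowest median of the gene lists, −1.26, with 9 of 12 members lower and none higher. Zbtb16, a zinc finger repressor and a classical glucocorticoid target, read 6.32, 5.66, 5.74 and 6.39 in KO and 6.40, 5.86, 5.90, 6.65 and 5.75 in TG at 78 weeks. At 52 weeks it read 7.14, 8.88, 8.40, 8.35 and 8.76 in KO and 6.91, 8.30, 8.79, 9.08 and 8.24 in TG. Replicate 1 was the lowest 52-week array in both lines, and the 78-week arrays were all below it. Zbtb16 was 4.65-fold lower (adjusted p = 8.84e-06). Tsc22d3, the anti-inflammatory protein GILZ, averaged 9.88 ± 0.27 in KO (SD, n = 4) and 10.01 ± 0.14 in TG (SD, n = 5) at 78 weeks, against 11.22 ± 0.05 and 11.32 ± 0.33 at 52 weeks (SD, n = 5 each). It was 2.5-fold lower (adjusted p = 9.67e-13), and no array of either week overlapped.

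Fkbp5, a co-chaperone of the glucocorticoid receptor, was 2.92-fold lower (adjusted p = 5.33e-07), although its probe sets ranged from −1.55 to 0.06. Cdkn1a, the cell cycle inhibitor p21 (−1.44), Errfi1, an inhibitor of EGF receptor signalling (−1.03), and Mt1, a zinc-binding metallothionein (−0.54), also fell. Lcn2 (−0.51), Klf9 (−0.16) and Sgk1 (−0.10) did not pass. Map3k6, a stress-activated kinase, and Fam107a, an actin-associated protein, were among the 15 genes with the lowest differences, at −1.95 and −1.91.

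Lipid-use genes overlapped with these. Of 17 genes of fatty acid oxidation and PPAR targets, 8 fell and none rose, with a median of −0.39. Angptl4, an inhibitor of lipoprotein lipase, averaged 7.31 ± 0.47 in KO (SD, n = 4) and 7.47 ± 0.48 in TG (SD, n = 5) at 78 weeks, against 9.12 ± 0.28 and 9.41 ± 0.24 at 52 weeks (SD, n = 5 each). Its 78-week arrays all lay below its 52-week arrays, and it was 3.67-fold lower (adjusted p = 1.92e-11), with other probe sets reaching −0.20. Pdk4, which holds back pyruvate oxidation, was 3.06-fold lower. The acyl-CoA thioesterases Acot2 (−1.13) and Acot1 (−1.09), the lipid droplet protein Plin2 (−0.64), Cpt2 of the carnitine system (−0.52) and its carrier Slc25a20 (−0.49) also fell. The oxidation enzymes Acadm (0.08), Acadl (0.04) and Ehhadh (−0.03) did not pass.

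**Figure D2:**
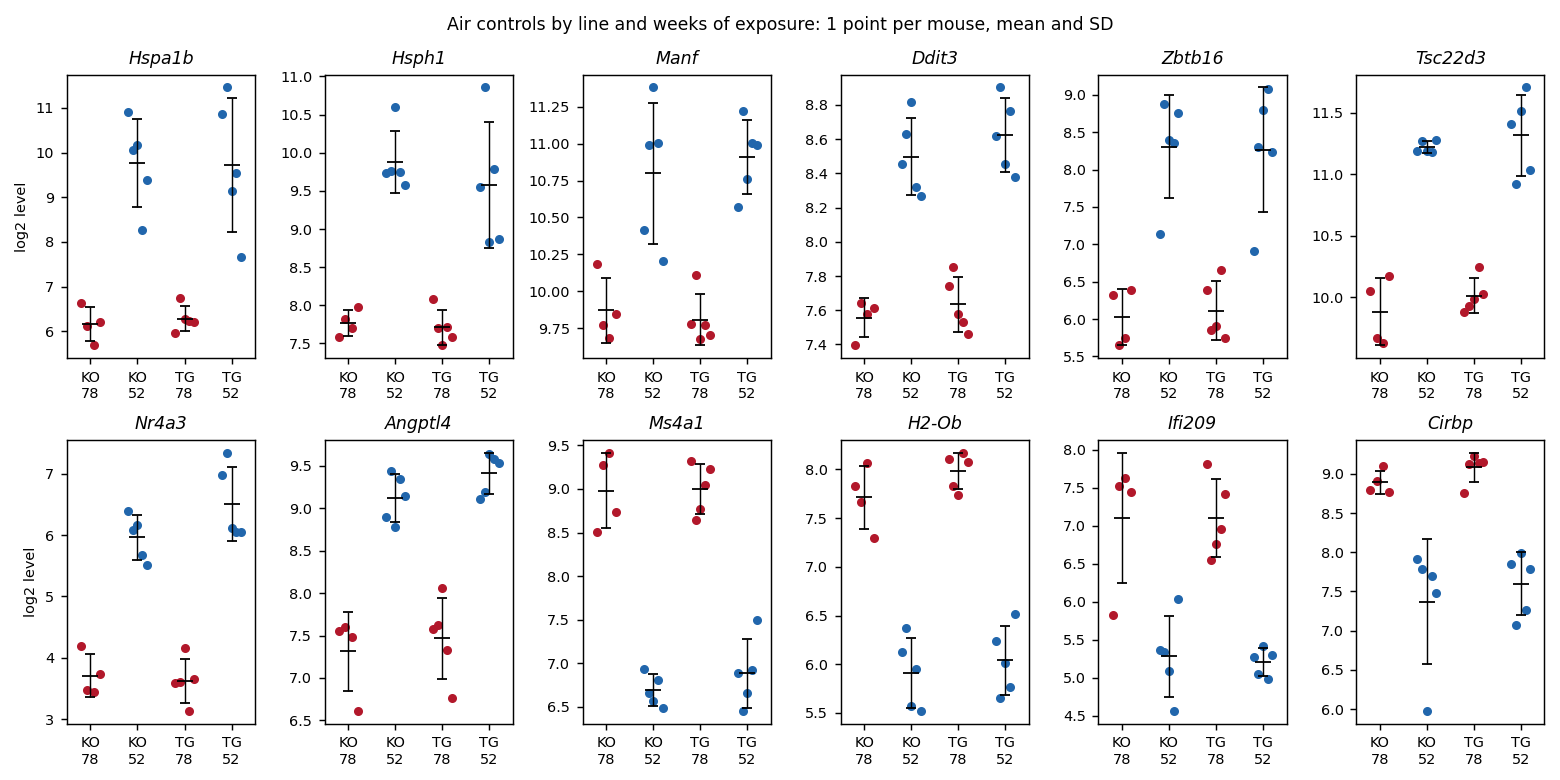
Log2 levels of 12 genes in each mouse by line (KO, TG) and weeks of exposure to air (78 left of 52), with the group mean and SD. Hspa1b, Hsph1, Manf, Ddit3, Zbtb16, Tsc22d3, Nr4a3 and Angptl4 are lower at 78 weeks, and Ms4a1, H2-Ob, Ifi209 and Cirbp are higher; in Ifi209, KO 78-week replicate 1 (5.83) lies below the highest 52-week array (6.03).

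Immediate-early genes, which cells transcribe within minutes of a stimulus, did not share a direction: 4 of 20 members rose and 4 fell, with a median of 0.02. Of all genes tested, 15% were called higher and 21.2% lower, so these counts lay near the shares over all genes. Nr4a3, an orphan nuclear receptor, had the smallest p of all genes tested. It read 4.19, 3.47, 3.44 and 3.74 in KO and 3.58, 3.60, 4.15, 3.14 and 3.65 in TG at 78 weeks. At 52 weeks it read 6.39, 6.09, 6.16, 5.67 and 5.51 in KO and 6.97, 7.34, 6.11, 6.05 and 6.06 in TG. Every 78-week array lay below every 52-week array, and the difference was −2.56 ± 0.22 (SE), or 5.92-fold lower (adjusted p = 1.21e-17). Its other probe sets reached −0.13. Fosl2, an AP-1 subunit, fell by 0.49.

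Egr1, a zinc finger transcription factor, rose: it read 8.92, 9.20, 9.85 and 9.03 in KO and 9.66, 9.34, 10.16, 8.34 and 9.20 in TG at 78 weeks. The 52-week levels were 7.78, 7.21, 8.91, 7.20 and 6.91 in KO and 8.11, 7.56, 8.97, 7.35 and 8.27 in TG. The groups overlapped, since replicate 3 of both lines at 52 weeks lay among the lower 78-week arrays, and the difference was 1.47 (adjusted p = 3.31e-06). Nr4a1, the sister receptor of Nr4a3, rose by 1.01, Ier3 by 0.65 and Ier2 by 0.40. Fos (0.44, adjusted p = 0.10) and Jun (0.13), the founding AP-1 subunits, did not pass.

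Clock genes differed in a mixed way and varied widely among mice of 1 group. In the core loop ARNTL and CLOCK or NPAS2 activate Per, Cry, Nr1d and Dbp genes. The products of Per, Cry and Nr1d genes then hold the activators back. Among the activators and their regulators, Nfil3, a repressor of D-box genes, fell by 1.32 (adjusted p = 2.86e-06), and Rora, an activator of Arntl, rose by 0.78 (adjusted p = 0.0038). Probe sets of Rora ranged from −0.02 to 0.78. Arntl (−0.68, adjusted p = 0.0776) and Npas2 (−0.79, adjusted p = 0.0556) did not pass. Of the 29 alternative fits Arntl passed in 7 and Npas2 in 11; without KO 78-week replicate 1 the adjusted p was 0.0333 for Arntl and 0.0228 for Npas2. Clock differed by 0.32 (adjusted p = 0.11).

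Among the 12 repressors and outputs 2 rose and 4 fell, against 15% of all genes tested called higher and 21.2% called lower. Per1, a light- and glucocorticoid-inducible period gene, fell by 1.19, with all 78-week arrays below all 52-week arrays. Per2 (−0.69), Cry2 (−0.50) and Cry1 (−0.34), which close the loop, fell as well; the Cry1 call was lost in 6 of the fits that left out 1 array, with adjusted p from 0.0545 to 0.0697. Dbp, a D-box activator with one of the largest daily swings, read 5.89, 7.73, 7.84 and 9.27 in KO and 6.57, 7.92, 8.31, 9.36 and 9.14 in TG at 78 weeks. At 52 weeks it read 4.61, 7.01, 7.50, 7.26 and 6.39 in KO and 5.36, 5.70, 7.31, 7.63 and 7.92 in TG. The groups overlapped, replicate 1 was the lowest array in all 4, and within each group the arrays differed by over 2 log2 units; Dbp rose by 1.30 (adjusted p = 0.0259), with adjusted p from 0.0526 to 0.105 in the 6 fits without 1 array that lost the call. Nr1d2, the repressor REV-ERB beta, rose by 1.30 (adjusted p = 0.000397), and Per3 differed by 0.57 (adjusted p = 0.0697), passing in 5 of the 29 alternative fits. The hour of death is not given beyond the morning, and its part in these differences was not tested.

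**Figure D3:**
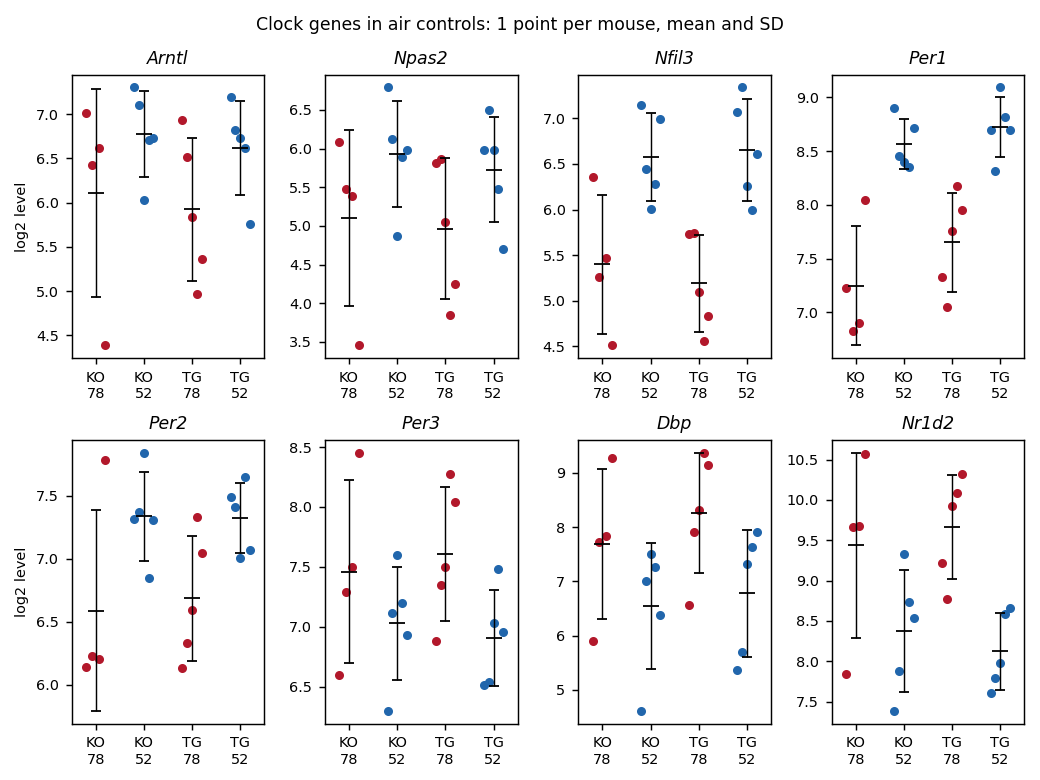
Log2 levels of 8 clock genes in each mouse by line (KO, TG) and weeks of exposure to air (78 left of 52), with the group mean and SD. Nfil3, Per1 and Per2 fell and Dbp and Nr1d2 rose at 78 weeks, while Arntl, Npas2 and Per3 did not pass; KO 78-week replicate 4 is the lowest array in Arntl and Npas2.

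In the promoter window the E-box (CACGTG, 7.15% of promoters) was found in 2 of 3 lower clock repressors with a promoter, Per1 and Cry1, and in 3 of 5 that did not pass. The D-box (TTATGNAA, 3.38% of promoters) was found in 1 of the 3 and 1 of the 5, and neither element in the 2 that rose. The cyclic AMP element (TGACGTCA, 1.79% of promoters) was found in 1 of 3 lower and 1 of 12 uncalled immediate-early genes with a promoter, and in 0 of 2 that rose.

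B cell genes were higher at 78 weeks: 12 of 14 members rose, none fell, and the median difference was 1.09. Ms4a1, which encodes CD20, read 8.51, 9.28, 9.41 and 8.73 in KO and 9.32, 8.65, 8.77, 9.04 and 9.22 in TG at 78 weeks. At 52 weeks it read 6.94, 6.66, 6.56, 6.81 and 6.49 in KO and 6.89, 6.46, 6.66, 6.92 and 7.50 in TG. All 78-week arrays lay above all 52-week arrays, and Ms4a1 was 4.61-fold higher (adjusted p = 2e-05). Bank1, a B cell adaptor, was the gene with the highest called difference, 6.49-fold (adjusted p = 2.69e-07), and Btla, a lymphocyte inhibitory receptor, was 4.7-fold higher. Ebf1, a B lineage transcription factor, rose by 1.47, the antigen receptor chains Cd79b and Cd79a by 1.32 and 0.80, Fcrla by 1.32, the kinase Blk by 1.29 and the complement receptor Cr2 by 0.82. Ighm, the IgM heavy chain (0.50), and Pax5 (−0.16) did not pass. Summed over the 14 markers, the level was 10.71 to 11.40 in KO and 11.06 to 11.46 in TG at 78 weeks, against 9.48 to 10.24 in KO and 9.79 to 10.75 in TG at 52 weeks. In whole lung, more B cells and more of these RNAs per B cell cannot be told apart.

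Members of the MHC class II and follicle lists were split between rises and no call. The share of all genes tested that was called higher was 15%. H2-Ob, the beta chain of the MHC class II modulator DO of B cells, averaged 7.71 ± 0.32 in KO (SD, n = 4) and 7.98 ± 0.19 in TG (SD, n = 5) at 78 weeks, against 5.91 ± 0.36 and 6.04 ± 0.35 at 52 weeks (SD, n = 5 each). It was 3.67-fold higher (adjusted p = 1.3e-06), and its 78-week arrays all lay above its 52-week arrays. Its partner H2-Oa rose by 0.96. In all, 4 of 10 MHC class II genes rose, with a median of 0.28, and 2 rose without KO 78-week replicate 1 or with arrays centred on their median, while the general class II chain H2-Aa (0.02) and the invariant chain Cd74 (0.22) did not pass. Of 9 follicle chemokines and receptors 4 rose: the follicle-homing receptor Cxcr5 by 1.38, lymphotoxin beta (Ltb) by 1.22, the chemokine receptor Ccr6 by 0.85 and the chemokine Cxcl12 by 0.50. Probe sets of Cxcl12 ranged from −0.03 to 0.50. Cxcl13, the ligand of Cxcr5, did not pass (0.09), the median of the 9 was 0.09 (0.36 in KO and −0.15 in TG), and 4 of the 9 differences were below 0.

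Fewer T cell and plasma cell genes passed. Of 23 T cell and cytotoxic lymphocyte genes 4 rose and none fell, with a median of 0.29: the NK and CD8 receptor Klrd1 by 0.90, the chemokine Ccl5 by 0.89, the CD8 chain Cd8b1 by 0.73 and the transcription factor Tbx21 by 0.51. Over all genes tested, 15% were called higher. The T cell receptor chain gene Cd3e differed by 0.07 and Cd4 by −0.16. Their summed level was 10.96 to 11.64 in KO and 10.81 to 11.26 in TG at 78 weeks, and 10.25 to 10.76 in KO and 10.44 to 11.09 in TG at 52 weeks. Of 10 plasma cell genes 3 rose, Prdm1 (0.55), Irf4 (0.78) and Tnfrsf13b (0.78), and 3 fell, Creld2, Derl3 (−0.60) and Fkbp11 (−0.55), which are endoplasmic reticulum genes. Jchain (0.59) and Igha (−0.00) did not pass.

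Interferon-inducible p200 genes, DNA sensors clustered on chromosome 1, were higher: 4 of 5 members rose, with a median of 0.79. Ifi209 read 5.83, 7.52, 7.63 and 7.44 in KO and 7.82, 6.55, 6.76, 6.95 and 7.42 in TG at 78 weeks. It read 5.37, 5.34, 5.09, 4.57 and 6.03 in KO and 5.27, 5.05, 5.42, 4.98 and 5.30 in TG at 52 weeks. KO 78-week replicate 1 fell within the 52-week range and the other 8 arrays did not; the level was 3.63-fold higher (adjusted p = 4.57e-08). Ifi205 rose by 1.71, Ifi203 by 0.79 and Ifi204, whose mean was under the filter level in 3 of the 4 groups, by 0.53, while Ifi202b (−0.17) did not pass. Members of this family are close copies, so a probe set may read more than 1 of them. With a stricter filter on low levels 2 members were called. In the wider interferon list 5 of 24 members rose, against 15% of all genes tested, and 9 of the 24 differences were below 0, with a median of 0.13. Those that rose were Ifit2 (1.31), the RNA sensor Ifih1 (1.25), the GTPase Gbp3 (1.20), Ifit1 (0.76) and Mx1 (0.38). Cxcl10 (0.04) and Oas2 (−0.05) did not pass.

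RNA splicing factors rose in 21 of 34 members and fell in 2, with a median of 0.28. Hnrnpd, an RNA-binding protein, averaged 9.59 ± 0.02 in KO (SD, n = 4) and 9.58 ± 0.08 in TG (SD, n = 5) at 78 weeks, against 8.87 ± 0.26 and 8.91 ± 0.16 at 52 weeks (SD, n = 5 each), a rise of 0.70 (adjusted p = 5.23e-11). Hnrnpdl rose by 0.95, the spliceosome-associated Pnisr by 1.46, Luc7l3 by 1.20, the splicing kinase Clk1 by 1.03 and Rbm25 by 0.95, while Hnrnpc fell by 0.34. Large chromatin proteins rose in 10 of 21 members, with a median of 0.12, among them the Mediator subunit Med13 (0.85), the demethylase Kdm5a (0.75) and the remodeller Smarca2 (0.69). Probe sets ranged from −0.08 to 0.85 in Med13 and from 0.05 to 0.75 in Kdm5a. Malat1, a nuclear long noncoding RNA of speckles, read 8.31, 9.44, 9.55 and 9.88 in KO and 9.53, 8.01, 9.25, 9.46 and 9.42 in TG at 78 weeks. At 52 weeks it read 7.70, 7.03, 8.01, 7.51 and 7.81 in KO and 7.14, 7.35, 7.14, 7.29 and 7.18 in TG. It was 3.48-fold higher (adjusted p = 1.26e-09), with KO 78-week replicate 1 and TG 78-week replicate 2 lowest among the 78-week arrays and TG 78-week replicate 2 level with the highest 52-week array. These 2 arrays also held the lowest positions of the 19 on the first within-group axis (−3.06 and −1.79), which carried 22.4% of the within-group variance of 102 arrays. The part of this axis in the Malat1 and splicing differences was not tested. The axis is made of deviations from group means, so the fit that holds it as a covariate cannot test that part.

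Respiratory chain and proteasome genes that passed were mostly lower. Over all genes tested, 21.2% were called lower and 15% higher, and the median was −0.08, close to the medians of these lists. Of 31 respiratory chain genes 14 fell and 1 rose, with a median of −0.12, for example the electron carrier Cycs (−0.33), Atp5o of ATP synthase (−0.29) and Ndufa2 of complex I (−0.27), while Sdha of complex II rose by 0.21. Probe sets of Cycs ranged from −0.33 to 0.02. Of 25 proteasome genes 11 fell and 2 rose, also with a median of −0.12, with Psmc3, an ATPase of the cap, at −0.26. Of 32 cytosolic ribosomal protein genes 29 did not pass, 2 fell and 1 rose, with a median of −0.01. With arrays centred on their median 7 of these fell and 0 rose, and no proteasome gene rose.

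**Figure D4:**
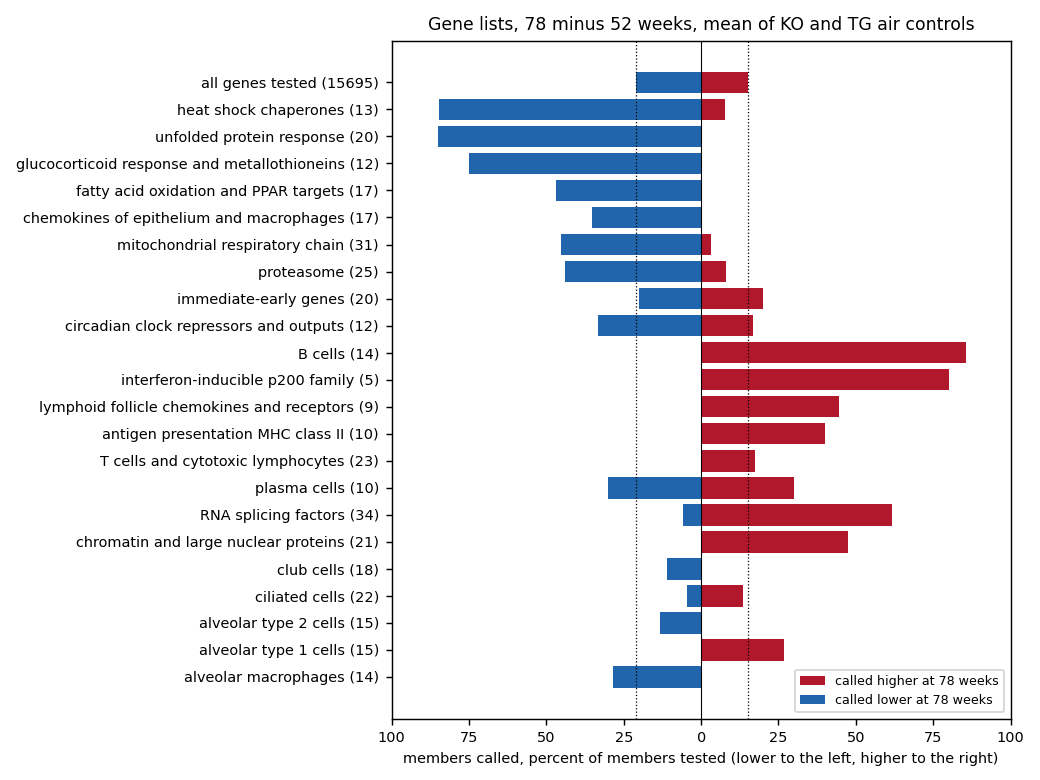
Share of the tested members of each gene list called higher (right) or lower (left) at 78 weeks in the mean of KO and TG air controls, in percent, with the number tested in brackets; the top row and dotted lines give all 15695 genes tested (15% higher, 21.2% lower). Heat shock, unfolded protein and glucocorticoid lists extend furthest to the left and B cell and p200 lists furthest to the right.

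Markers of the lung's own cell types are set against 15% of all genes tested called higher and 21.2% called lower. Several of their counts lay near or below these shares. Of 18 club cell genes 2 fell, Cyp2b10 (−0.32) and the tight junction gene Cldn10 (−0.46), while the secretoglobin Scgb1a1 differed by 0.07, and 4 fell with arrays centred on their median. Their summed level was 15.92 to 16.11 in KO and 15.98 to 16.23 in TG at 78 weeks, and 15.89 to 16.35 in KO and 15.89 to 16.15 in TG at 52 weeks. Alveolar type 2 genes fell in 2 of 15 members, with surfactant protein Sftpc at 0.05, and alveolar type 1 genes rose in 4 of 15, with Ager at −0.00. Ciliated cell genes rose in 3 of 22, such as the dynein heavy chain Dnah5 (0.91), and fell in 1, and without KO 78-week replicate 1 they rose in 5. Of 20 endothelial genes 4 rose, among them the transcription factor Sox17 (0.70) and the VEGF receptor Kdr (0.39), and 5 fell, among them the nitric oxide synthase Nos3 (−0.36). Heart muscle genes, whose source in these samples was not tested, had summed levels of 10.56 to 10.96 in KO and 10.11 to 12.40 in TG at 78 weeks. At 52 weeks these were 10.00 to 12.93 in KO and 10.47 to 11.79 in TG, and 1 of 18 genes was called.

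Alveolar macrophage genes fell in 4 of 14 members, with a median of −0.39, while 21.2% of all genes tested were called lower. Among the 4 were the lipid regulator Pparg (−0.47) and the cholesterol exporter Abcg1 (−0.31). Within the lines, 0 members were called lower in KO and 4 in TG, with medians of −0.20 and −0.45. Their summed level was 12.92 to 14.06 in KO and 12.96 to 13.45 in TG at 78 weeks, and 13.12 to 14.36 in KO and 13.11 to 14.53 in TG at 52 weeks. Chemokines of epithelium and macrophages fell in 6 of 17 members and rose in none, and without KO 78-week replicate 1 the fallen members numbered 11. Ccl17, which attracts CCR4-bearing T cells (−1.56), and the monocyte attractant Ccl2 (−0.87) were among them. Saa3, an acute-phase protein of the lung, read 9.01, 4.71, 5.31 and 5.61 in KO and 4.93, 7.15, 5.97, 5.28 and 6.88 in TG at 78 weeks. It read 6.12, 5.48, 10.77, 9.69 and 7.09 in KO and 7.34, 8.04, 7.18, 7.44 and 11.09 in TG at 52 weeks. The groups overlapped, with 3 arrays far above the rest at 52 weeks and 1 at 78 weeks, and Saa3 fell by 1.92 (adjusted p = 0.00549). AA467197, which also reads highest in KO replicate 3 and TG replicate 5 at 52 weeks, fell by 1.51. The summed neutrophil level was 12.57 to 13.37 (median 12.79) in KO and 12.29 to 13.36 (median 12.56) in TG at 78 weeks. At 52 weeks it was 12.06 to 14.44 (median 12.78) in KO and 12.28 to 13.89 (median 12.32) in TG. Of 16 neutrophil genes 3 fell, or 5 without KO 78-week replicate 1, against 21.2% of all genes tested.

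Matrix and signalling genes were divided. Of 27 non-collagen matrix genes 7 fell, among them the metalloproteinase inhibitor Timp1 (−1.17) and the protease Mmp3 (−1.16), and 2 rose, Postn (1.01) and Ccn1 (0.84), both matricellular proteins. Of 18 collagens 4 fell and 1 rose, while 21.2% of all genes tested were called lower and 15% higher. With arrays centred on their median, 11 of the 27 matrix genes and 7 of the 18 collagens fell. In TGF-beta, BMP and Wnt signalling 8 of 30 members rose, with the BMP receptor Bmpr2 at 1.20 (its probe sets ranged from −0.08 to 1.20) and the ligand Tgfb2 at 0.59, and 4 fell. Cholesterol synthesis genes rose in 5 of 17, such as Lss (0.82) and Hmgcs1 (0.69), and fell in 1. Retinoic acid hydroxylase Cyp26b1 fell by 1.49 (adjusted p = 0.0165).

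Several of the 15 highest differences lie outside these lists. Adgre4, an adhesion receptor of myeloid cells, read 5.81, 7.17, 7.34 and 6.46 in KO and 6.90, 7.49, 6.67, 6.65 and 7.63 in TG at 78 weeks. It read 5.55, 4.78, 4.24, 4.00 and 5.37 in KO and 5.15, 4.95, 4.83, 4.93 and 4.14 in TG at 52 weeks. The weeks did not overlap and the level was 4.25-fold higher (adjusted p = 1.01e-07). Itga4, the integrin chain of VLA-4, rose by 1.68 and Gimap8, a lymphocyte GTPase, by 1.63. The 5 Itga4 probe sets ranged from 0.01 to 1.68. Uvssa of transcription-coupled repair (2.04) and the glycosyltransferase B3gnt5 (2.04) rose in 1 probe set each, while their other probe sets gave 0.09 and 0.15. Cops2 of the COP9 signalosome rose by 1.77, the zinc finger gene Zfp810 by 1.74 and Slfn4, a myeloid schlafen, by 1.67.

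The same comparison within each line gave 1991 called genes in KO (12.7%; 943 higher, 6.01%, and 1048 lower, 6.68%) and 3610 in TG (23%; 1717 higher, 10.9%, and 1893 lower, 12.1%), of which 1461 were called in both and none in opposite directions. Of the 1991 genes called in KO, 1953 had the same sign in TG, and of the 3610 called in TG, 3497 had the same sign in KO, against 12668 (80.7%) of all genes tested. Across the 15695 genes, which are not independent replicates, the differences in KO and TG had a Pearson r of 0.836 and a Spearman rho of 0.729. The difference between the lines in the week effect passed for 0 genes (0%), with 430 genes at an unadjusted p under 0.05 and no second tool run. Hspa1b differed by −3.60 in KO and −3.44 in TG, Nr4a3 by −2.25 in KO and −2.88 in TG, and Ms4a1 by 2.29 in KO and 2.12 in TG. The KO count moved with single arrays: it was 3036 without KO 78-week replicate 1 and 739 without replicate 4.

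CD-1 air controls, outbred mice that share no array with these lines, were compared in the same way (5 mice at 78 weeks and 4 at 52 weeks, 1 of these on plate 2). Of 15695 genes 317 (2.02%) were called, 132 higher (0.841%) and 185 lower (1.18%), and 305 of them (96.2%) had the same sign in the mean of KO and TG, against 70.8% of all genes tested. With only the compared groups in the fit, 0 genes passed in CD-1, and without CD-1 52-week replicate 4 45 did. Heat shock chaperones fell in 9 of 13 members in CD-1, with a median of −1.07, and unfolded protein genes in 5 of 20, with a median of −0.38. Hspa1b read 8.39, 7.75, 6.27, 6.50 and 6.42 in CD-1 at 78 weeks and 10.32, 10.22, 11.28 and 11.98 at 52 weeks, again without overlap. Hspa1b fell by 3.93 in CD-1 (adjusted p = 1.8e-05). Nr4a3 (−2.50), Hsph1 (−2.35) and Stip1 (−1.51) fell in CD-1 too, while Cirbp (1.98) and H2-Ob (1.94) rose. The H2-Ob call in CD-1 was lost with the mean of all probe sets (limma, adjusted p = 0.0673) and without CD-1 52-week replicate 4 (0.129). Of the 14 B cell genes 0 passed in CD-1 (limma), with 5 at an unadjusted p under 0.05, a median of 0.69 and Ms4a1 at 1.29.

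The test of the difference between the lines and CD-1 passed for 2 genes (0.0127%), with 1449 at an unadjusted p under 0.05. Trim5, a restriction factor of the tripartite motif family that has close copies in the mouse, read 4.53, 4.77, 5.48 and 5.39 in KO and 5.25, 4.48, 4.74, 4.85 and 4.91 in TG at 78 weeks. It read 3.67, 3.70, 3.90, 4.03 and 3.90 in KO and 3.70, 3.70, 4.13, 4.10 and 4.04 in TG at 52 weeks. In CD-1 it read 3.04, 3.12, 3.29, 3.17 and 4.92 at 78 weeks, against 3.69, 4.39, 4.22 and 5.05 at 52 weeks. It was higher at 78 weeks in all KO and TG arrays and lower in 4 of 5 CD-1 arrays than in any at 52 weeks, a difference between the effects of 2.01 (adjusted p = 0.00209; 0.0648 without CD-1 52-week replicate 4). Pdap1, a growth factor-associated phosphoprotein, fell by 0.41 in the lines and rose by 0.70 in CD-1, a difference of −1.11 (adjusted p = 0.0364) that was lost in 20 of the other fits, for example without CD-1 78-week replicate 2 (0.278).

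WT C57Bl/6 air controls had 2 mice at 78 weeks and 5 at 52 weeks, on plate 1. Their well rows were G at 78 weeks and D at 52 weeks, and the CD-1 arrays lay in row G at 78 weeks and in rows D and H at 52 weeks, so plate position and week cannot be told apart there either. Of the 5692 genes called in the lines 5304 (93.2%) had the same sign in WT, as did all 344 called with at least 2-fold, against 78% (12245) of all genes tested. WT had Hspa1b at −4.09, Nr4a3 at −2.37, Cirbp at 2.24, Zbtb16 at −1.94, Ms4a1 at 1.84 and Malat1 at 0.83. In styrene-exposed KO and TG mice, whose 78-week arrays lay on plate 2 and 52-week arrays on plate 1, 4515 of the 5692 (79.3%) and 337 of the 344 had the same sign, against 63.5% of all genes tested. There Hspa1b differed by −2.23, Nr4a3 by −2.76, Cirbp by 1.62, Zbtb16 by −3.32, Ms4a1 by 2.23 and Malat1 by 1.09. Week and plate cannot be told apart in the styrene groups beyond the plate 2 term of the fit.

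Levels at 26 and 104 weeks place these differences in a longer series of KO and TG air controls, with 9, 10, 9 and 11 mice at 26, 52, 78 and 104 weeks; the 104-week arrays lay on other plates. Hspa1b had medians of 11.21, 9.80, 6.22 and 6.49 in that order, with ranges of 9.57 to 11.70 at 26 weeks and 6.00 to 7.31 at 104 weeks. Nr4a3 had medians of 6.72, 6.10, 3.60 and 3.92, Manf of 10.91, 10.99, 9.77 and 9.92, and Cirbp of 7.40, 7.74, 9.09 and 8.63. In these genes the medians at 26 and 52 weeks lay on one side and those at 78 and 104 weeks on the other. Zbtb16 and Fkbp5 took another course: Zbtb16 had medians of 7.89, 8.38, 5.90 and 8.24 and Fkbp5 of 7.46, 8.45, 6.77 and 8.07, so 78 weeks was the low point. Fam107a likewise read 6.74 to 7.13 at 78 weeks and 7.76 to 10.04 at 104 weeks.

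Ms4a1 had medians of 6.47, 6.74, 9.04 and 8.70 in the same order, and its range widened to 5.44 to 11.17 at 104 weeks, against 8.51 to 9.41 at 78 weeks. Malat1 had medians of 7.89, 7.32, 9.44 and 9.68. Ifi209 had a median of 7.42 at 78 weeks and 5.99 (range 5.07 to 7.71) at 104 weeks. No test was made across these weeks.

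**Figure D5:**
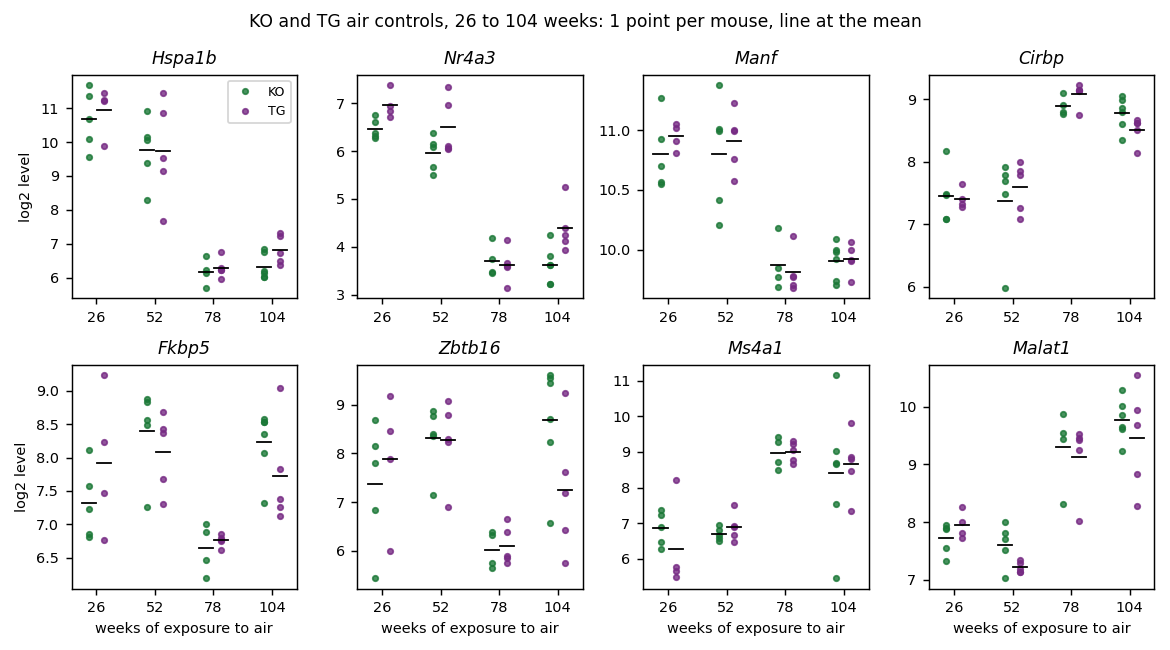
Log2 levels of 8 genes in each KO and TG air control mouse against weeks of exposure to air (26, 52, 78, 104), with a line at the group mean. By their means, Hspa1b, Nr4a3 and Manf are lower and Cirbp is higher at 78 and 104 weeks than at 26 and 52 weeks, Fkbp5 and Zbtb16 are lowest at 78 weeks, and Ms4a1 spreads from 5.44 to 11.17 at 104 weeks.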

How the data were processed

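RNA of whole lungs was hybridised to 1-colour Affymetrix HT MG-430 PM arrays. The deposited series matrix holds log2 values, made by the authors with RMA and Partek, per the submitters' processing notes; no versions are given in the sources used here. RMA combines probes into 1 value per probe set, and quantile normalization can hide a shift shared by all genes. Of 45037 probe sets, 28898 had 1 gene in the platform annotation, 551 had several and 15588 were not listed; names were updated through Entrez numbers. Each of 17097 genes was read from its probe set with the highest mean. A gene was tested where at least 3 of 150 arrays exceeded that array's 30th percentile (2.99 to 3.19), which left 15695 genes.

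Group means of all 31 groups and a plate 2 term were fitted with limma 3.58.1 in R 4.3.3 (lmFit, eBayes, Benjamini-Hochberg, threshold 0.05), so all groups share 1 estimate of the spread. KO and TG differences were averaged with equal weight. On simulated data for the averaged comparison, run on 15695 genes, changes of 0.25, 0.5, 1 and 2 (log2) were recovered in 10%, 80%, 98% and 100% of genes. Only 200 genes were changed, 50 of each size, and the noise was independent between genes. In the real arrays many more genes were called and part of the spread was shared, so these shares need not hold there. The number of arrays limits the precision. The naming rule took, from the averaged comparison, the 15 genes with the largest called rise and the 15 with the largest called fall that agreed in sign between lines, 10 of each from the other comparisons, at most 4 per gene list by smallest p, every clock gene tested and Cyp2f2. Acot1, Atf4, Blk, Calr, Cd79a, Clk1, Fcrla, Herpud1, Hnrnpc, Hspa4, Hspa5, Hspe1, Luc7l3, Mt1, Nr4a1, Plin2, Pnisr, Postn, Slc25a20, Xbp1 and the other uncalled or remaining list members given were picked with their values in view. The members and gene lists were chosen with earlier results of these data known. Promoters came from RefSeq (GRCm38.p6). Alternatives covered the filter, the probe set rule, the samples and covariates in the fit, the replicate block and each array left out. Centring the arrays was added after the data were seen. Nr1d1, Hspa1a and Hsp90ab1 were not analysed here.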

Additional observations from a re-analysis of the deposited data

Results flagged for a closer look

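Among the 112 genes checked, 54 of 464 checks of a gene in a group found 1 array far from the rest of its group; chance flags about 1 in 20 groups. Of these values, 16 belonged to TG 78-week replicate 2 and 11 to KO 78-week replicate 1, the arrays with the lowest positions on the first within-group axis.

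TG 78-week replicate 2 was the lowest of its group in Malat1 (8.01), the splicing genes Clk1 (8.68), Hnrnpdl (11.05), Luc7l3 (7.99), Pnisr (5.91) and Rbm25 (6.74), and in Bmpr2 (10.19), Cops2 (4.36), Dnaja1 (8.48), Gimap8 (7.29), Postn (7.66), Rora (5.65), Uvssa (4.36) and Zfp810 (5.25). It was the highest in Manf (10.11) and Psmc3 (9.95). KO 78-week replicate 1 was the lowest of its group in B3gnt5 (4.66), Btla (6.82), Gimap8 (7.70), Ifi209 (5.83), Ifih1 (5.31) and Zfp810 (4.84), and the highest in Creld2 (8.83), Cry1 (7.30), Fosl2 (9.20), Plin2 (11.55) and Sox17 (9.16).

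In the other 78-week groups, KO replicate 4 was lowest in Angptl4 (6.61) and H2-Oa (6.68) and highest in Per2 (7.78). TG replicate 1 was lowest in Cirbp (8.76) and highest in Cxcr5 (7.29), TG replicate 3 was lowest in Ccl5 (8.96) and Fcrla (5.48), and TG replicate 5 was lowest in Cry1 (6.19).

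At 52 weeks, TG replicate 5 was highest in Saa3 (11.09), AA467197 (9.30), Timp1 (8.54), Ccl2 (5.16) and Cops2 (4.26), and TG replicate 4 in Mmp3 (8.92). KO replicate 3 was highest in Ccl2 (6.32) and Hsph1 (10.59) and lowest in Cirbp (5.98), Hnrnpd (8.42) and Ndufa2 (10.89). KO replicate 1 was lowest in Fam107a (7.95), Fkbp5 (7.26), Map3k6 (6.35) and Pdap1 (6.47), and KO replicate 4 was lowest in Atf4 (10.26) and highest in Mmp3 (8.32). In CD-1 at 78 weeks, Pdap1 was highest in replicate 2 (7.72) and Trim5 in replicate 5 (4.92).

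The week effect of the mean of KO and TG differed from that of CD-1 by 2.01 in Trim5 and by −1.11 in Pdap1. Cyp26b1 was lower at 78 weeks in KO and TG (−1.49) and differed by 0.58 in CD-1; the difference of −2.06 did not pass (limma, adjusted p = 0.514).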

How the results depend on the processing

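Of 118 single-gene results, 102 kept their direction and call under every alternative run, 3 gained a call somewhere (Arntl, Npas2 and Per3), and 0 reversed. The other 13 lost a call somewhere, among them Dnaja1, Hspa4, Hspa5, Cry1, Dbp, Trim5 and Pdap1. The rest of the 13 were the CD-1 results for Hspa1b, Nr4a3, Hsph1, Cirbp, H2-Ob and Stip1. The averaged comparison gave 4677 (without KO 78-week replicate 4) to 6406 calls (without KO 78-week replicate 1) with 1 array left out and 4770 to 6864 otherwise; with arrays centred, 5447 of the 5692 calls were shared. Calls in KO numbered 1245 with only the compared groups in the fit, 3535 with the first within-group axis as a covariate, and 739 to 3036 with 1 array left out; TG gave 2521 to 4117. CD-1 gave 0 calls with only the compared groups, 636 with arrays up to 78 weeks, 674 without the plate 2 term, 1012 with the covariate, and 45 to 476 with 1 array left out. The difference from CD-1 passed for 0 genes with the stricter filter and with only the compared groups, for 1 without the plate 2 term and with centred arrays, for 766 with the covariate, and for 0 to 4 with 1 array left out. TG minus KO gave 0 calls in every fit. The covariate is made of deviations from group means, so in KO and TG it changes the estimated spread and not the differences. The causes were not tested. Whether replicate numbers pair the mice was not settled: 5 of 13 correlations of same-numbered mice were over 0.1, with a range of −0.23 to 0.24. With the replicate block the counts were 5735 averaged, 2031 in KO, 3748 in TG, 310 in CD-1, 0 for TG minus KO and 1 for the difference from CD-1. The block also called Arntl (adjusted p = 0.0485), Npas2 (0.03) and Per3 (0.0339), and Pdap1 lost its call (0.0759). Genes near the filter level have the least room to show a fall.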
